A study of Mus musculus with 4 samples.

Results

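The genes described here are 34 that serve primitive red blood cells, in whole mouse embryos at embryonic day 9.5 that either lacked Cop1 or came from its control group. COP1, a ubiquitin ligase, tags transcription factors so that they are degraded. The members were taken by gene symbol, as every probe set that the platform's annotation lists with 1 gene of the list, which gave 70 of the 45101 probe sets on the Affymetrix array. These cover 32 of the 34 genes, and Epb41 and Trim58, for which that annotation lists no probe set with 1 gene alone, are not analysed here. The list was divided by role into 3 embryonic globins, 12 regulators, 14 membrane genes and 5 enzyme or carrier genes. Of these, 3, 12, 13 and 4 were measured. The 32 genes are compared below with 18193 genes in all.

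The control pool held RNA of 6 control embryos, each wild type or heterozygous for the Cop1 deletion, although the sample titles call them wild-type. The other pool held RNA of 6 Cop1-null embryos. Each pool was divided into 2 portions and each portion went onto 1 array, so that there were 4 arrays and 1 pool per genotype. The 2 arrays of a genotype are technical portions, the errors and p-values below measure the spread between portions, and nothing here measures the spread between embryos. How many somites the embryos of each pool had, and whether the yolk sac was left on them, is not given in the sources used here.

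Primitive red cells form in the blood islands of the yolk sac and enter the circulation as large nucleated cells while the heart begins to beat. They carry embryonic hemoglobins, in which the zeta chain, encoded by Hba-x, pairs with the epsilon-y or beta-h1 chain, encoded by Hbb-y and Hbb-bh1. The transcription factors GATA1 and KLF1 and a complex around TAL1 and LMO2 drive the genes of these cells, and a skeleton of spectrin, ankyrin, adducin, protein 4.1 and protein 4.2 holds their membrane in shape.

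Values are RMA expression values on the log2 scale, and a difference is the null pool minus the control pool. Rises and falls are genes with an adjusted p under 0.05 in limma and a difference of at least 1.5-fold, and the brightest probe set stands for a gene. Cop1 itself read 11.35 and 11.26 in the control portions and 9.67 and 9.77 in the null portions, a fall of 2.99-fold, and its probe set was not placed against the deletion. The arrays had medians between 6.03 and 6.10. No member probe set differed by 1.5-fold between portions of a pool, the largest such gap being 0.49 (log2). Such gaps were rare on the whole array too, with 133 of all 45037 tested probe sets between the control portions and 143 between the null portions. These are whole embryos, so fewer red cells and less of an RNA per red cell cannot be told apart.

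Of the 32 measured members 6 fell and 0 rose. The fallen genes were Klf3, Bcl11a, Add2, Klf1, Epb42 and Ank1. They are 18.8% of the members, while 8.06% of all 18193 genes fell and 3.58% rose. By limma's adjusted p alone, at any fold, 17 members (53.1%) read lower in the null pool and 2 higher, against 21.8% and 12% of all genes. By an unadjusted p under 0.05 (limma) these were 18 and 2, beside 5009 and 3050 of all 18193 genes. The median difference was -0.25 over the members and -0.02 over all genes. On the arrays themselves, 22 of the 32 genes read lower on both null arrays than on both control arrays, 3 read higher on both and 7 overlapped. Readings without overlap were found on the lower side for 39.3% of all genes and on the higher side for 28.9%. Centring the arrays on their poly-A spikes, which shifts the median of all genes to -0.26, gave 14 fallen members beside 17.7% of all genes. Averaging all probe sets of a gene gave 3, beside 6.06% of all genes. Applying quantile normalization once more gave 4, beside 7.55% of all genes. Leaving out the dimmest 40% of probe sets gave 6, beside 10.5% of the 13136 genes that remained.

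**Figure D1:**
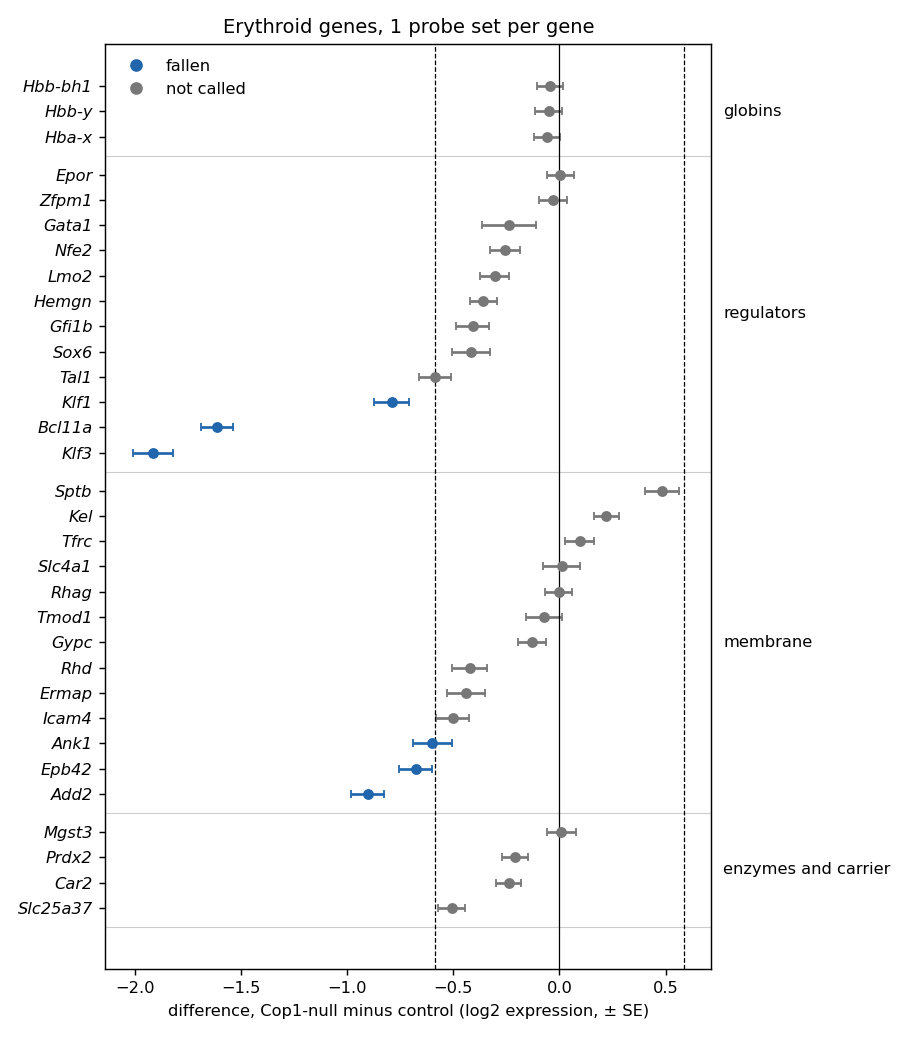
Difference of each measured member between the Cop1-null and the control pool (x axis, log2 expression, with the standard error from limma), by role, 1 probe set per gene; the dashed lines mark 1.5-fold. The 6 fallen genes, in blue, lie in the regulator and membrane groups, and the 3 globins lie between -0.06 and -0.04.

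By role, the share of falls was 25% among the regulators and 23.1% among the membrane genes, beside 8.06% of all genes. Among 12 regulators 3 fell, and 9 (75%, beside 21.8% of all genes) passed the adjusted p alone, each of them lower in the null pool (median difference -0.38). Among 13 membrane genes 3 fell, with a median of -0.13, and both members that passed the adjusted p on the higher side belonged to this group. Of the 3 globins and the 4 enzyme or carrier genes 0 fell in limma, with medians of -0.05 and -0.22, while 0 and 3 of them had an unadjusted p under 0.05. At that unadjusted p 5009 of all 18193 genes were lower and 3050 higher. These groups are small and no test compared them with one another.

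Start sites are shown for 6 members, 4 of the genes counted as fallen and 2, Hbb-y and Rhag, that were not called. Klf3 is among the former by its brightest probe set, and its probe sets disagree. The sequences are from RefSeq on build GRCm38.p6 and are 300 bases around the annotated start of the gene, read along the gene. Capitals mark GATAA, the core that GATA factors bind, and CACCC, the core that KLF1 and KLF3 bind, each searched on both strands, where they read TTATC and GGGTG.
Hbb-y, chr7:103853158-103853457, minus strand: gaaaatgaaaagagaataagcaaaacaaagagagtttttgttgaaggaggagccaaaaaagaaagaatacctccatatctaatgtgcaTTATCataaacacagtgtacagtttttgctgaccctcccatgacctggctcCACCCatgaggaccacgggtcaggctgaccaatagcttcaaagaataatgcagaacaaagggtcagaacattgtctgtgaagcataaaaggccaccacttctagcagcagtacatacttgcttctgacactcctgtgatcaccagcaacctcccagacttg
Rhag, chr17:40810899-40811198, plus strand: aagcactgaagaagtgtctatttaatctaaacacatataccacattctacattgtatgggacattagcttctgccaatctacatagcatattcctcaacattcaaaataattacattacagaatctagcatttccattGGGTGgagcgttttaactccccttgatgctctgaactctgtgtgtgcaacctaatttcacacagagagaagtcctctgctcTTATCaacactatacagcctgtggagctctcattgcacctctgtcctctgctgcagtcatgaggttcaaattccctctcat
Klf1, chr8:84901732-84902031, plus strand: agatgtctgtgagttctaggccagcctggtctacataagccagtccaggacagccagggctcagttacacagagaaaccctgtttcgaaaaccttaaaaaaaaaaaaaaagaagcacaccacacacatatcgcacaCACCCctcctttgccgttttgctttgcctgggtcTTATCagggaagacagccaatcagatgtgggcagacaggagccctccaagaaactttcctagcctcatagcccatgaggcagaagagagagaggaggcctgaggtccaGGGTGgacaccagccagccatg
Epb42, chr2:121036828-121037127, minus strand: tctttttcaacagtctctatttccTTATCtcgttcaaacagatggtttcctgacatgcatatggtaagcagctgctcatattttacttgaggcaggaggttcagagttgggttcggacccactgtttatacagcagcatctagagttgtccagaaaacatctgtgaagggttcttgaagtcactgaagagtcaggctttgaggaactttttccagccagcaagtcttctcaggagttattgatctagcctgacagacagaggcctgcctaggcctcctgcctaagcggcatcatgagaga
Klf3, chr5:64803271-64803570, plus strand: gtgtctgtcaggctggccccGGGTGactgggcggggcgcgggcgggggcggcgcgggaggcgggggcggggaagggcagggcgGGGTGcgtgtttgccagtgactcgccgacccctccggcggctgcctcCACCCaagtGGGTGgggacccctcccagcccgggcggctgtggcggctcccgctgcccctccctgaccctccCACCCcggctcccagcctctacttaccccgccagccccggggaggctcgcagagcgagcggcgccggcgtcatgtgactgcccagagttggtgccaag
Bcl11a, chr11:24080445-24080744, plus strand: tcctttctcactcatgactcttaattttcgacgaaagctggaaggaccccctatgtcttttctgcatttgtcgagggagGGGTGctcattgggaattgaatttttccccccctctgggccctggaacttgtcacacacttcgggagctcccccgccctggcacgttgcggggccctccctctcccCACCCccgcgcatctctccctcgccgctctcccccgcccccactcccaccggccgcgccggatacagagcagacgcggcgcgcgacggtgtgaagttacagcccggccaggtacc
The table of start sites held 26 of the 34 members, 22 of them with a single start. Of these 22, 13 held GATAA (59.1%), 19 held CACCC (86.4%) and 11 held both (50%). Over all 32851 start sites the shares were 25.4%, 57.5% and 12.6%. That larger set left out no chromosome and counts each start of a gene with several, so the 2 sets are not alike. Of the 5 fallen members with a single start 2 held GATAA, 4 held CACCC and 1, Klf1, held both, and of the 16 that were measured and not called 10, 14 and 9 did. The letters Klf3 and Bcl11a carry are CACCC alone, and those of Epb42 are GATAA alone. A match is a description of these letters and not a bound site.

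The embryonic globins differed little. Hba-x, the zeta chain, read 14.38 and 14.36 in the control portions and 14.30 and 14.31 in the null portions. Hbb-bh1, the beta-h1 chain, read 14.37 and 14.39 in the control portions and 14.33 and 14.34 in the null portions. Hbb-y, the epsilon-y chain, read 14.45 and 14.45 against 14.43 and 14.37. The null arrays were the lower ones in each case, without overlap, as they were for 39.3% of all genes. The same was true of all 7 globin probe sets, which read only these 3 genes. The differences were nevertheless small, from -0.13 to -0.04, and limma's adjusted p lay between 0.173 and 0.634. For Hba-x the difference was -0.06 (SE 0.06), which is 1.04-fold. Applying quantile normalization once more turned Hbb-bh1 to 0.0066 and Hbb-y to 0.0037, while poly-A spike centring, which shifts all genes down, gave -0.29 for Hba-x and -0.28 for both Hbb-bh1 and Hbb-y. With an intensity trend in limma the adjusted p of Hba-x was 0.0404 at the same difference.

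The globins lie at the upper end of the scale, where no probe set moved far. Their 7 probe sets ranked between 2 and 19 from the top of 45101 on every array, and the brightest value of an array was 14.46 to 14.48. Among the 44 probe sets with a mean of at least 14 there were 0 calls (limma), 3 had an unadjusted p under 0.05, and the largest absolute difference was 0.20. In contrast, the 714 with a mean of at least 12 held 25 rises and 11 falls. Whether signals near the ceiling were compressed was not tested, so the globin values do not show that globin RNA was equal in both pools. Parts of globin sequences are alike, and some of these probe sets carry the suffix that Affymetrix gives to probes shared between transcripts, so Hbb-y and Hbb-bh1 may not be fully separated.

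**Figure D2:**
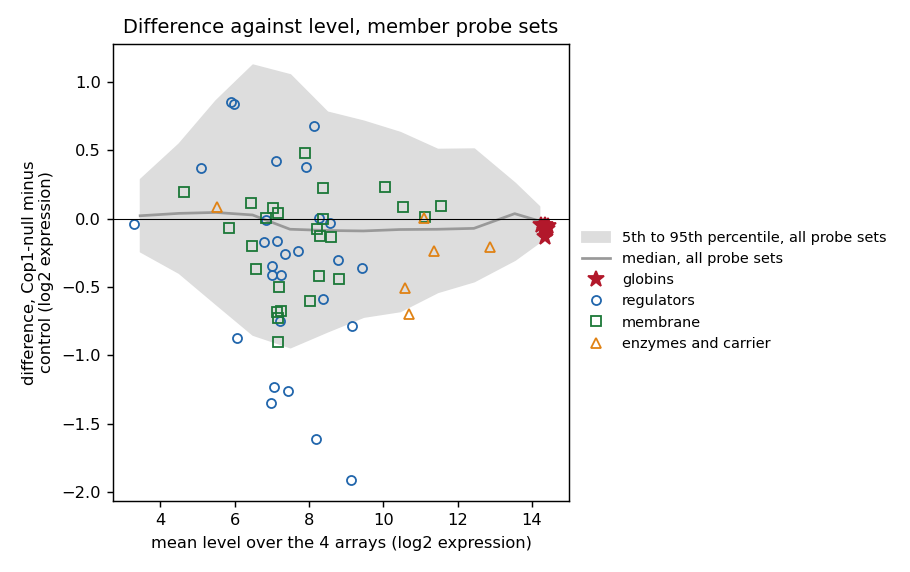
Difference between the pools (y axis, log2 expression) against the mean level over the 4 arrays (x axis, log2 expression) for the 67 tested member probe sets; the grey band spans the 5th to the 95th percentile of all probe sets of like level. The 7 globin probe sets, as stars, lie at the far right, where the band is narrow. Of the regulators, probe sets of Klf1, Klf3 and Bcl11a reach below the band, as does the dimmer one of Prdx2. The fallen membrane genes Epb42, Ank1 and Add2 lie inside the band or at its edge.

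Among the regulators, Klf1 fell. It encodes the CACCC-binding activator of globin, membrane and heme genes. It read 9.47 and 9.63 in the control portions and 8.72 and 8.79 in the null portions. Both null values lay below both control values by far more than the portions differed. The means were 9.55 ± 0.12 and 8.76 ± 0.05 (SD, n = 2 portions), a difference of -0.79 (SE 0.08) or 1.73-fold (limma, adjusted p = 0.00329). Klf1 had a single probe set, and it stayed past both limits under every alternative that was run.

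Klf3, a repressor that binds the same CACCC sites and is switched on by KLF1 in red cells, gave a divided picture. Its brightest probe set read 10.04 and 10.15 in the control portions and 8.08 and 8.28 in the null portions, a fall of 3.77-fold (limma, adjusted p = 0.000769). A second one read 7.52 and 7.65 against 6.84 and 6.83 and fell too. The other 5 probe sets were higher in the null pool, and 2 of them rose. The brighter of these read 7.81 and 7.79 in the control portions and 8.47 and 8.49 in the null portions, and the other 5.64 and 5.49 against 6.25 and 6.56. Which transcript each probe set reads is not given in the sources used here, and the mean over all 7 probe sets differed by 0.01. No single direction can therefore be stated for Klf3, although it counts among the falls above.

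Bcl11a fell in most of its probe sets. It encodes a zinc finger repressor that silences embryonic globin genes in later red cells and that also acts in the developing nervous system. Its brightest probe set read 8.97 and 9.03 in the control portions and 7.32 and 7.46 in the null portions. All 7 of its probe sets had negative differences, and 5 of them passed both limits. The difference of the brightest was -1.61 (SE 0.08), 3.06-fold (limma, adjusted p = 0.000728). The 2 without a call differed by -0.17 and -0.04, and the second of these read 3.16 to 3.48 on all arrays, at the dim end of the scale. Markers of neurons read lower in the null pool too. Of 8 such genes, chosen after the data were seen, 5 fell and 0 rose, while 8.06% of all genes fell. Stmn2, Dcx, Elavl4, Nefl and Tubb3 fell, and Elavl3, Isl1 and Nefm were not called. All 8 read lower on both null arrays without overlap, as 39.3% of all genes did. Their summed level went from 13.58 and 13.62 on the control arrays to 13.01 and 13.03 on the null arrays (log2). Their part in the Bcl11a value was not tested.

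Sox6, which together with BCL11A represses Hbb-y in later red cells and is also made in cartilage and brain, also had probe sets in both directions. Its brightest probe set read 7.55 and 7.35 in the control portions and 7.04 and 7.02 in the null portions, a difference of -0.42 that lay under the fold limit. Of its other 3 probe sets 2 were lower without a call. The dimmest rose from 5.45 and 5.53 to 6.27 and 6.42, a difference of 0.85 (SE 0.08, limma, adjusted p = 0.00255).

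Several factors at the head of the red cell programme lay under the fold limit. Tal1, a bHLH factor needed to form any blood cell, read 8.69 and 8.64 against 8.02 and 8.14, a difference of -0.58 (SE 0.07, adjusted p = 0.00535). It lay just under the fold limit and Ank1, at 1.52-fold, just past it, so that the count of falls depends on where that limit is set. Gfi1b, a zinc finger repressor that TAL1 and GATA1 work with, differed by -0.41, Hemgn, a nuclear protein of red cell maturation, by -0.36, and Lmo2, the bridging partner of TAL1, by -0.30. Nfe2, a bZIP factor of globin regulation, differed by -0.26. Each of these 5 genes read lower on both null arrays and passed limma's adjusted p without reaching the fold limit.

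Gata1, the master factor of red cells, read 7.92 and 7.73 in the control portions and 7.44 and 7.73 in the null portions. The groups overlapped, and the difference of -0.24 (SE 0.13) did not pass the test (limma, adjusted p = 0.225). Zfpm1, which encodes the GATA1 partner FOG1, differed by -0.03. Epor, the receptor of erythropoietin, read 8.30 and 8.26 against 8.30 and 8.28, with a difference of 0.0048 (SE 0.06, limma, adjusted p = 0.969).

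**Figure D3:**
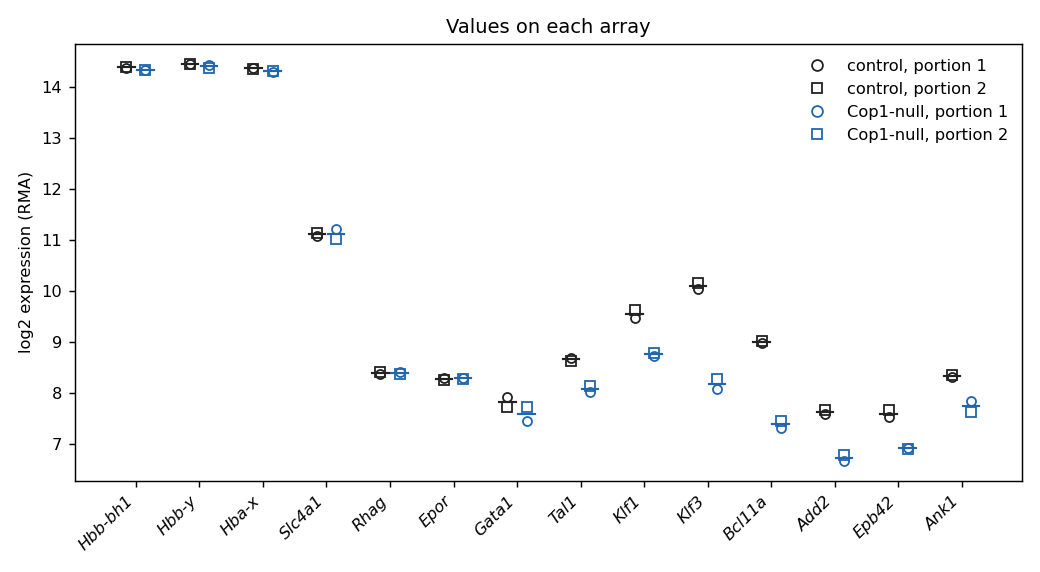
Expression on each of the 4 arrays (y axis, log2) for the globins, 5 members without a call and the 6 fallen members; circles and squares are the portions of a pool and short lines the pool means. The fallen genes at the right show null values below control values with wide gaps, and Gata1 shows overlapping portions.

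Of the genes of the membrane skeleton, 3 fell. Epb42, which encodes protein 4.2, the link between the anion exchanger and ankyrin, read 7.52 and 7.67 in the control portions and 6.93 and 6.91 in the null portions, a fall of 1.60-fold. Its other probe set fell by 0.68 on the log2 scale as well (limma, adjusted p = 0.00275), which makes Epb42 the only member with several probe sets that all passed both limits. Ank1, which encodes the ankyrin of red cells, read 8.32 and 8.35 against 7.84 and 7.63 (1.52-fold, limma, adjusted p = 0.00897). Its other 3 probe sets, which were dimmer, differed by -0.07 to 0.19 without a call. The call of Ank1 was lost in several alternatives. The mean of its probe sets gave -0.099 (adjusted p = 0.297) and quantile normalization once more -0.54, under the fold limit. Leaving out control portion 1 gave -0.61 with an adjusted p of 0.058, leaving out control portion 2 gave -0.59 with an adjusted p of 0.0642, and leaving out null portion 2 gave -0.49, under the fold limit (limma).

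Add2, which encodes the beta adducin that caps actin at the spectrin junctions, had 5 probe sets. The brightest read 7.59 and 7.68 in the control portions and 6.67 and 6.79 in the null portions, a difference of -0.90 (SE 0.08, limma, adjusted p = 0.00202). A second fell from 7.56 and 7.49 to 6.82 and 6.77. The remaining 3 differed by 0.04, 0.01 and -0.20 without a call. As the brightest ones are nearly equal in level, another of them stood for Add2 in limma once control portion 1 was left out, with a difference of -0.03 (adjusted p = 0.854), and once control portion 2 was left out, with 0.11 (adjusted p = 0.473). The same happened with quantile normalization once more, at 0.060 (limma, adjusted p = 0.585), and the mean of all probe sets gave -0.36, under the fold limit.

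Sptb, the beta spectrin of red cells, went the other way. It read 7.66 and 7.67 in the control portions and 8.06 and 8.22 in the null portions, a difference of 0.48 (SE 0.08) that passed limma's adjusted p (0.0112) but not the fold limit, and it was 0.25 (adjusted p = 0.32) with poly-A spike centring. Its dimmer probe set differed by 0.12. Tmod1, which caps the actin ends of the skeleton, differed by -0.07 (adjusted p = 0.577).

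Transporters and receptors of the red cell surface differed by little, and poly-A spike centring turned Slc4a1 and Tfrc to -0.22 and -0.14. Slc4a1, the anion exchanger known as band 3, read 11.07 and 11.14 in the control portions and 11.21 and 11.03 in the null portions, with overlap and a difference of 0.01 (SE 0.09). Rhag, the ammonia channel of the Rh complex, read 8.37 and 8.42 against 8.41 and 8.37, and its difference was -0.0032 (SE 0.06). Tfrc, the transferrin receptor that brings in iron, differed by 0.10 (adjusted p = 0.353). Its 3 control probe sets on the array, which read the 5′ end, the middle and the 3′ end of the transcript, were not tested and differed by -0.23, -0.16 and 0.17. The 3′ signal thus exceeded the 5′ signal by 1.52 and 1.31 on the control arrays and by 1.92 and 1.72 on the null arrays (log2). For the same pair of control probe sets of Gapdh this gap lay between -0.06 and 0.00, and for those of beta-actin between 0.14 and 0.19, with overlap of the pools in both. The part of transcript ends in other members' values was not tested.

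The blood group genes of the membrane varied. Rhd, the partner of RhAG in the Rh complex, read 8.45 and 8.49 in the control portions and 7.97 and 8.13 in the null portions, a difference of -0.42. Icam4, an adhesion molecule, differed by -0.50 and Ermap, a membrane protein of red cells, by -0.44. All 3 passed limma's adjusted p on the lower side and lay under the fold limit. Kel, a zinc endopeptidase, differed by 0.22 (SE 0.06, limma, adjusted p = 0.0483), which poly-A spike centring turned to -0.012 and for which the replicate block gave an adjusted p of 0.083, and Gypc, glycophorin C, differed by -0.13 (adjusted p = 0.21).

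Among the enzyme and carrier genes, Slc25a37, which encodes mitoferrin, the importer of iron into mitochondria, read 10.87 and 10.80 in the control portions and 10.33 and 10.33 in the null portions. The difference of -0.51 (SE 0.07) was 1.42-fold and lay under the fold limit (limma, adjusted p = 0.00556). Prdx2, a peroxidase abundant in red cells, differed by -0.21 in its brighter probe set (adjusted p = 0.057). Its dimmer one fell, from 11.01 and 11.08 to 10.35 and 10.34, by 1.62-fold (adjusted p = 0.00229). Car2, a carbonic anhydrase, differed by -0.24, and Mgst3, a microsomal glutathione transferase, by 0.01 (adjusted p = 0.943).

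**Figure D4:**
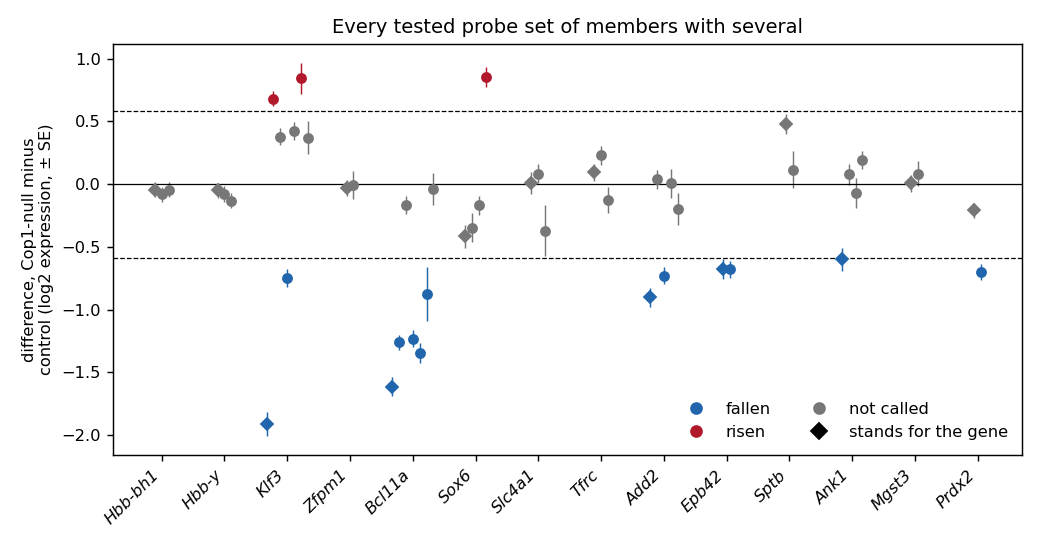
Difference between the pools (y axis, log2 expression, with the standard error) for every tested probe set of the 14 members that have several; diamonds stand for the gene in the counts and dashed lines mark 1.5-fold. The probe sets of Klf3 spread from -1.91 to 0.84, while both of Epb42 lie at -0.68.

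Over all 67 tested member probe sets 14 fell and 3 rose (20 had a positive difference), beside 6.96% and 6.76% of all 45037 probe sets. Of the 14 members with several tested probe sets, 6 had both called and uncalled ones, and Klf3 was the only one with calls in both directions. In 24 of the 32 members no probe set was called.

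Other red cell genes were taken from a separate list of 25, of which 16 were measured. Of these 2 fell (12.5%, beside 8.06% of all genes) and 0 rose in limma, where 7 were lower and 2 higher by an unadjusted p under 0.05, and the median was -0.14. By the same unadjusted p 5009 of all 18193 genes were lower and 3050 higher. Bpgm, the enzyme that makes the oxygen-releasing effector of hemoglobin, read 9.83 and 9.86 in the control portions and 9.08 and 9.18 in the null portions, a fall of 1.64-fold. Cldn13, a claudin of mouse red cells, fell by 1.56-fold. Heme synthesis gave 0 calls among 7 measured genes, with a median of 0.01 that poly-A spike centring turned to -0.22 (limma), and 5 had an unadjusted p under 0.05, 3 lower and 2 higher. Urod differed by -0.52 (SE 0.06, adjusted p = 0.00419) and Ppox by 0.33, the 2 largest changes there. Alas2, the red cell enzyme of the first step, read 10.18 and 10.21 in the control portions and 10.27 and 10.26 in the null portions.

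Markers of other cells that the embryo holds moved as well, and their part in the values above was not tested. Over all 18193 genes 8.06% fell and 3.58% rose. Of 8 macrophage genes 5 fell (62.5%) and 0 rose, led by the complement genes C1qa (-1.14) and C1qb (-0.997), the mannose receptor gene Mrc1 (-0.95) and Cd68 (-0.74). Ptprc (-0.46), Csf1r (-0.37) and Adgre1 (-0.01) were not called, and the groups overlapped for Adgre1. The summed level of the 8 genes was 9.81 to 9.99 on the control arrays and 9.21 to 9.33 on the null arrays. Of 6 blood progenitor genes Myb fell, from 8.18 and 8.28 to 6.74 and 6.82 (2.74-fold). Cd34 (-0.45), Spi1 (-0.24), Gata2 (-0.08), Runx1 (0.10) and Kit (0.56) were not called, and the groups overlapped for Runx1. The median of the list was -0.16, and its summed level was 10.57 to 10.62 on the control and 10.39 to 10.41 on the null arrays. MYB is a factor of definitive blood progenitors, and primitive red cells form without it.

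Of 5 measured megakaryocyte genes the platelet chemokine genes Pf4 (0.68) and Ppbp (0.79) rose and 0 fell, while 3.58% of all genes rose. Itga2b (0.54), Gp9 (0.19) and Gp1bb (-0.30) were not called, and Gp1bb read lower on both null arrays. The summed level of this list was 10.01 to 10.11 on the control and 10.60 to 10.61 on the null arrays. Of 8 endothelial genes Kdr (0.74), Pecam1 (0.72) and Esam (0.63) rose and 0 fell. Tie1 (0.37), Tek (0.34), Emcn (0.30), Cdh5 (0.16) and Cldn5 (-0.14) were not called. The groups overlapped for Cdh5, and Cldn5 read lower on both null arrays. The summed level of the endothelial list went from 11.26 to 11.30 on the control arrays to 11.68 on both null arrays. Of 7 measured genes of the yolk sac endoderm or liver 3 fell (42.9%, beside 8.06% of all genes), namely Alb (-2.09), Ttr (-1.53) and Afp (-1.01). Rbp4 (-0.11), Apoa1 (-0.01), Apob (0.05) and Apoc2 (0.09) were not called, and the median of the list was -0.11. The summed level was 12.23 to 12.29 on the control and 11.29 on both null arrays. Afp, the brightest of these genes, read 11.82 and 11.86 in the control portions and 10.84 and 10.81 in the null portions. With poly-A spike centring the medians of the megakaryocyte and endothelial lists were still positive, at 0.31 and 0.13. The summed level of the globins was 15.98 on both control arrays and 15.93 to 15.94 on the null arrays.

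**Figure D5:**
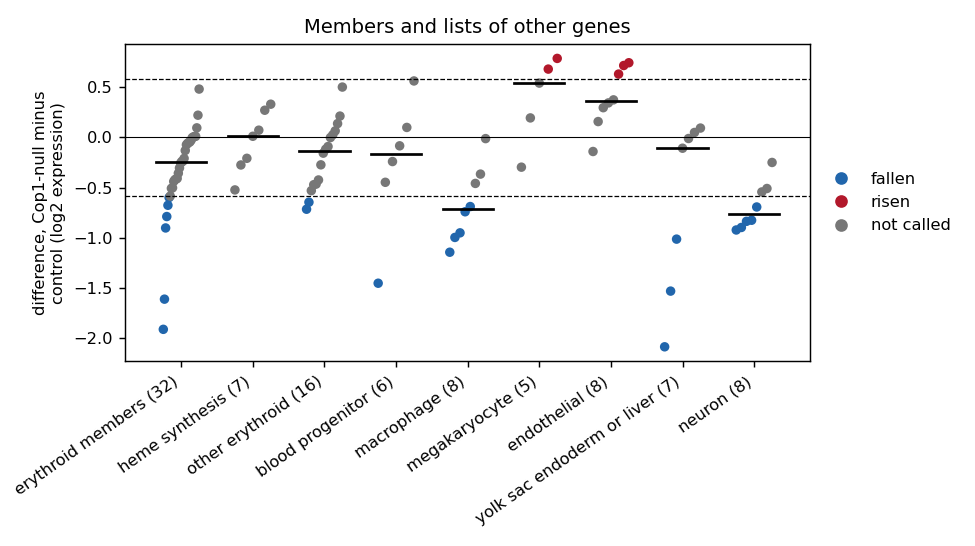
Difference between the pools (y axis, log2 expression) of each gene of the erythroid members and of 8 other lists, with the number measured in brackets and the median as a line. Macrophage genes have a median of -0.72, megakaryocyte genes one of 0.54 and endothelial genes one of 0.36, and the heme synthesis genes lie on both sides of 0.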

How the data were processed

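The authors deposited 1 table of log2 expression values for 4 arrays, which per the submitters' processing notes come from RMA and the package affy. Their versions are not stated there. RMA gives every array the same distribution of intensities, so a change in RNA per embryo leaves no trace. RNA was column-purified from embryos lysed at dissection, per the labels' protocols. Of 45101 probe sets, 64 control ones, 3 of them for Tfrc, were not tested. The platform's annotation lists 34945 of the other 45037 with 1 gene. The genotypes were compared with limma 3.58.1 (lmFit, eBayes, R 4.3.3) and Benjamini-Hochberg adjustment over all 45037. For genes with several probe sets, the one of highest mean was taken. All members are named, with array values for the globins and each fallen member, and up to 4 called genes, or else 2, of each other list. Values of further members and the neuron list were chosen after seeing the data. The members and lists were chosen with earlier results of these data known. On simulated data for this comparison, 44% of 50 probe sets changed 1.5-fold were called among 45037, and 76% passed the adjusted p alone. A change set at the fold limit can land on either side of it, so the 44% reflects that limit as well as the test. Of those changed 2-fold, 100% were called. There is no read depth in arrays, and their number limits the precision.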

Additional observations from a re-analysis of the deposited data

How the results depend on the processing

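The 6 falls among members were 4 to 6 when 1 array was left out, which leaves a lone array assumed to vary like the other pool's, and the 14 falls among member probe sets were 12 to 13. They were 4 and 13 with quantile normalization applied once more, where 7.55% of all genes fell. Centring on the poly-A spikes, whose medians were 7.40 and 7.63 on the control and 7.67 and 7.83 on the null arrays, shifted the all-gene median from -0.02 to -0.26, and gave 14 fallen members and 23 fallen probe sets beside 3215 falls (17.7%) and 352 rises among all genes. It turned the sign of Epor (-0.23), Kel (-0.012), Mgst3 (-0.22), Slc4a1 (-0.22) and Tfrc (-0.14), none of which was called. The mean of all probe sets of a gene left 3 falls, those of Klf1, Bcl11a and Epb42, where 6.06% of all genes fell. It turned Klf3 (0.0059) and Slc4a1 (-0.092), and it joins probe sets that disagree. Klf1, Bcl11a and Epb42 were called as falls in every alternative run. Quantile normalization once more turned Add2 (0.060), for which another probe set then stood, Hbb-bh1 (0.0066), Hbb-y (0.0037), Rhag (0.057) and Zfpm1 (0.035). Leaving out 1 array gave -0.96 to 0.11 for Add2, -0.016 to 0.026 for Epor, -0.037 to 0.056 for Mgst3, -0.028 to 0.022 for Rhag, -0.081 to 0.10 for Slc4a1, -0.16 to 0.017 for Tmod1 and -0.068 to 0.011 for Zfpm1. Tal1, which was not called with all arrays, then gave -0.645 to -0.52, on both sides of the fold limit. The members counted as fallen were thus not the same ones each time. The replicate block, portion number as a term, gave 6 falls and 0 rises among members and changed no call; the deviations of same-numbered portions correlated at 0.06 across probe sets, and the numbers are not known to pair the samples. The intensity trend and leaving out the dimmest 40% of probe sets also gave 6 falls and 0 rises. Of all genes tested 8% fell with the replicate block and 8.15% with the intensity trend. Without the dimmest probe sets 10.5% of 13136 genes fell, and all 32 measured members stayed in that set. The other lists, without the neuron list, held 16 called genes, and 16 to 19 under the alternatives that kept all 4 arrays. In limma 0 members rose under any of these. The neuron list was not run under the alternatives.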
